A study of Mus musculus with 6 samples.

Results

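The genes described here encode nucleolar ribosome biogenesis factors, the proteins that make, modify and assemble ribosomal RNA into ribosomal subunits. They were taken from a list of 39 named genes, each represented by its brightest probe set with 1 annotated symbol, judged by the mean over 6 arrays. By this rule 38 of the 39 were measured, among 18193 genes in all. The exception was Mrto4, whose probe set carries 3 symbols, because the annotation also names pseudogenes of it. The choice of genes used no difference between the groups, but it was made with earlier results of these arrays known.

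The arrays profile bone marrow cells of a lineage-negative gate that takes Sca1+, CD150+ and CD48+ cells, which the submitters call committed progenitors. The dKO mice carried MxCre together with floxed c-myc and N-myc (genotype MxCre c-myc flox2 N-myc flox2), and the control mice carried the same floxed alleles and no MxCre (c-myc flox2 N-myc flox2). All were 8 weeks old and of mixed background, and all received 2 daily injections of pI-pC, an interferon inducer that switches the MxCre transgene on, ending 3 days before the cells were collected. A control array holds RNA of 2 pooled mice and a dKO array of 3 pooled mice, with 3 arrays per group. MxCre is not restricted to the sorted cells, and MxCre itself and the loss of the c-myc and N-myc genes cannot be told apart in this design. The tissue entry of control 1 reads long-term stem cells, although its gate is that of the other arrays.

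As background, ribosome production begins in the nucleolus, where RNA polymerase I transcribes the long precursor of ribosomal RNA. Small nucleolar ribonucleoproteins (snoRNPs) of the box C/D and box H/ACA classes modify the precursor, the small subunit processome folds and cuts it, and further factors build the 40S and 60S subunits. MYC proteins are known activators of many of these genes, and blood progenitors need new ribosomes as they grow and divide. Genes that respond to MYC often carry the E-box CACGTG near their start, the sequence that dimers of MYC and MAX bind.

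Values are RMA expression values on a log2 scale, so a difference of 1 is a 2-fold change, and array medians lay between 5.91 and 5.94. Myc, the targeted c-Myc gene, read 10.79, 10.95 and 10.47 in control 1, 2 and 3 and 7.99, 7.87 and 7.44 in dKO 1, 2 and 3. Of 3 Mycn probe sets 1 was far lower in dKO (mean 9.33 in control and 4.05 in dKO), and whether any of them lies in the deleted part is not given in the labels. Control 1 and dKO 1 stood apart by their Xist values (9.10 and 10.50, against 5.03 to 5.86 in the other arrays), a transcript of female cells. Control 2 stood apart by the 12 bacterial poly-A control probe sets, whose mean was 9.02 there and 10.75 to 11.70 in the other arrays. The 3' minus 5' difference of the Gapdh control probe sets, a sign of RNA integrity and amplification, was 2.11 to 2.32 in control and 2.34 to 2.73 in dKO. For the actin control probe sets it was 0.17 to 0.24 in control and 0.09 to 0.30 in dKO, which did not separate the groups. Markers of blood lineages moved with the groups (limma, adjusted p under 0.05). Among 14 T and NK cell markers 8 rose, as did 6 of 10 megakaryocyte and 1 of 7 erythroid markers. B cell and lymphoid progenitor markers fell in 4 of 12 cases, and granulocyte and monocyte markers fell in 3 of 12 and rose in 1. All 18193 genes gave 2.85% lower and 3.12% higher. At an unadjusted p under 0.05 the first 3 lists gave 11, 7 and 6 higher and 0 lower. The lymphoid progenitor list gave 4 lower and 0 higher, and the granulocyte and monocyte list 8 lower and 1 higher. All genes gave 9.14% lower and 9.1% higher at that level. The summed level of the T and NK markers (log2 of the summed linear values) ran from 10.90 to 11.20 in control and from 13.36 to 13.60 in dKO. It ran from 11.55 to 11.56 and from 13.33 to 13.59 for megakaryocyte markers, from 10.95 to 11.33 and from 11.65 to 11.97 for erythroid markers, from 11.76 to 12.25 and from 10.12 to 10.67 for lymphoid progenitor markers, and from 13.12 to 13.81 and from 11.03 to 12.51 for granulocyte and monocyte markers. Bright genes weigh most in such sums, as Gzmb does among the T and NK markers (mean 7.03 in control and 12.57 in dKO). The median log2 fold change over these 14 markers was 1.27, and 2 of them lay below 0. Some markers were bright in the control arrays already, with control means of 10.89 for Dntt, 11.67 for Mpo and 10.57 for Pf4. Other cells in the sort and changed expression within the gated progenitors cannot be told apart here. No marker is at 0 on this scale, which has no zero, and the part of either in the results below was not tested. Of the gate's own genes, Cd48 and Slamf1 (CD150) were above the array median in all arrays and neither passed the test.

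The E-box was searched as the letters CACGTG, which read the same on both strands, in the RefSeq promoter windows of assembly GRCm38.p6 (250 bases before and 50 after each annotated start). Of the 39 genes 34 had an entry, and 9 of these (26.5%) held the motif in at least 1 window, against 8.09% of all 27025 genes with an entry and 10.2% of those measured on the arrays. The motif stood in 17.6% of 425 genes lower in dKO and in 11.1% of 440 genes higher in dKO. These shares are descriptions, and a match is not a bound site. The sites of 8 members are shown in lower case with the motif in capitals, since they are the letters a MYC dimer could read. Positions count from 1 at the first transcribed base, with negative positions before it, and a sequence shorter than 30 bases ends at the edge of its window:

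Grwd1 (chr7:45830740-45830767, - strand, motif at position 35): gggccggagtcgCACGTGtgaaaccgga
Wdr43 (chr17:71616220-71616249, + strand, motif at position 18): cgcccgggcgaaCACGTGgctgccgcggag
Tsr1 (chr11:74898092-74898121, + strand, motif at position 25): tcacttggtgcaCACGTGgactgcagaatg
Mybbp1a (chr11:72441355-72441376, + strand, motif at position 41): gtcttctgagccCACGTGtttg
Pes1 (chr11:3963965-3963994, + strand, motif at position 3): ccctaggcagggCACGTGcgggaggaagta
Nop2 (chr6:125131811-125131840, + strand, motif at position -60): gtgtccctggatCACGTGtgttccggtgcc
Utp20 (chr10:88826765-88826789, - strand, motif at position 38): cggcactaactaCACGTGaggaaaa
Pno1 (chr11:17211540-17211564, - strand, motif at position 38): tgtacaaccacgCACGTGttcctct

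In 7 of these 8 members the motif began within the first 50 transcribed bases, at positions 3 to 41, and in Nop2 it lay upstream. The ninth member was Rrn3, the factor that recruits RNA polymerase I, which held the motif at positions -215 and -48. The 250 bases before its start are set beside those of Gnl3, the member with the largest fall, which held none in its window:

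Rrn3 (chr16:13780449-13780698, + strand): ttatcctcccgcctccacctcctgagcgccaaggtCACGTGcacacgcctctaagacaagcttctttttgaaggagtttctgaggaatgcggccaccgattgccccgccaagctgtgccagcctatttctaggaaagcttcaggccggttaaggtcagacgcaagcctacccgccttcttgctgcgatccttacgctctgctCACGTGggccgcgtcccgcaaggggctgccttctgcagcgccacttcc
Gnl3 (chr14:31019132-31019381, - strand): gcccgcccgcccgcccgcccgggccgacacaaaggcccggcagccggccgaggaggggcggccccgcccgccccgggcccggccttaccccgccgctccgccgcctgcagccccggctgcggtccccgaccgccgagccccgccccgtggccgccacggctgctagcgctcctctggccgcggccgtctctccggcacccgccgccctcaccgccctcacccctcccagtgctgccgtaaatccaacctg

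These 250 bases hold 81.6% G and C for Gnl3 and 59.6% for Rrn3. Members with and without the motif covered overlapping ranges, and no test was run between them. The 9 members with it had a median log2 fold change of -0.50 (from -1.06 to 0.15), and the 24 measured members with an entry and no motif had -0.41 (from -1.52 to 0.41). Of the 8 members that fell, 7 had an entry and 2 of these, Grwd1 and Wdr43, held the motif.

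Of 38 nucleolar biogenesis factors 8 fell and 0 rose (limma, adjusted p under 0.05 over all genes), a share of 21.1%, where 2.85% of all 18193 genes were called lower and 3.12% higher. The fallen members were Gnl3, Nhp2, Grwd1, Rrp1b, Dkc1, Fbl, Wdr43 and Wdr12. At an unadjusted p under 0.05 the numbers were 20 lower and 0 higher, or 52.6% lower against a background of 9.14% (9.1% higher). All 3 dKO arrays lay below all 3 control arrays in 22 members (57.9%, background 10.7%) and above them in 0 (background 12.7%). The log2 fold change was below 0 in 33 members, or 86.8%, against 42.4% of all genes. Its median was -0.48, with the middle of the distribution between -0.70 and -0.18 (quartiles), against 0.05 over all genes. By mean level the 38 members lay at percentiles 52.34 to 99.8 of all genes, so the background holds many dimmer genes. With dim genes filtered out, 10 members and 612 genes were lower (519 genes without the filter), and the median over the genes kept was -0.0009. No background matched for level was used, here or below. In bulk RNA of sorted cells, fewer cells of a type and less RNA per cell cannot be told apart. The number of lower members was 3 without control 2, 5 without control 3 and 2 without control 1 and dKO 1 together, while the median stayed between -0.49 and -0.41 with any 1 array left out.

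Array by array, the shift was shared by the 3 dKO pools. Relative to each gene's control mean, the median over members was -0.30 in dKO 1, -0.48 in dKO 2 and -0.47 in dKO 3, and between -0.08 and 0.02 in the control arrays. The same median over all genes was 0.04, -0.03 and 0.12 in dKO 1, 2 and 3. In dKO 1 32 of 38 members lay below their control mean, in dKO 2 31 and in dKO 3 34. The control arrays gave 16 to 24. Their medians and counts lie near the middle by construction, since the reference is the mean of these same arrays.

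**Figure D1:**
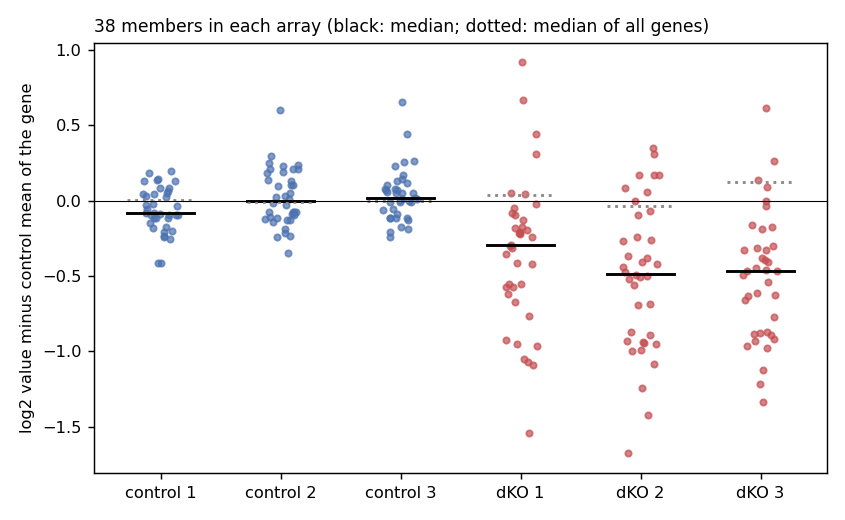
Each point is 1 of 38 members in 1 array, as its log2 value minus the mean of that gene over the 3 control arrays; black bars are medians over members and dotted bars medians over all genes. The black bars of dKO 1, 2 and 3 lie at -0.30, -0.48 and -0.47, below the dotted ones.

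The 7 members that are snoRNP core proteins belong to both classes, which guide chemical modification of ribosomal RNA. All 7 were lower in every dKO array than in every control array, as were 10.7% of all genes. For Nop58 this was only just so. Of the box C/D proteins, fibrillarin (Fbl), the methyltransferase, read 10.74, 11.09 and 10.75 in control 1, 2 and 3 and 9.81, 9.99 and 9.93 in dKO 1, 2 and 3. Its lowest control array lay above its highest dKO array, and it fell by 0.95 ± 0.18 on the log2 scale (SE; 1.93-fold, adjusted p = 0.0132). That call was lost without control 2 (adjusted p = 0.0646) or dKO 1 (0.053). The scaffold proteins Nop56 and Nop58 did not pass. Nop56 read 11.16, 11.07 and 11.32 in control and 10.61, 10.68 and 10.64 in dKO (-0.54 ± 0.16 SE, adjusted p = 0.0991), groups well apart. Nop58 read 10.63, 10.38 and 10.76 in control and 10.37, 10.35 and 9.93 in dKO (-0.37 ± 0.20 SE, adjusted p = 0.376), so that the groups nearly met.

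Of the box H/ACA proteins Dkc1 and Nhp2 fell, and Gar1 and Nop10 did not pass. Dkc1 encodes dyskerin, the enzyme that turns uridine into pseudouridine and that also belongs to telomerase. It read 10.32, 10.62 and 10.30 in the control arrays and 9.46, 9.42 and 9.49 in the dKO arrays, a gap between the groups wider than the spread within either. The change was -0.95 ± 0.17 (SE; 1.94-fold, adjusted p = 0.0112), lost without control 2 (adjusted p = 0.058). Nhp2, an RNA-binding core protein, read 10.04, 10.37 and 9.95 in control and 9.05, 8.70 and 9.35 in dKO. It fell by 1.09 ± 0.22 (SE; 2.12-fold, adjusted p = 0.0184), with dKO 3 the highest of its group. It lost its call without control 2 (adjusted p = 0.0848), dKO 1 (0.0562) or dKO 2 (0.055), and when its _s_at probe set, whose suffix marks sequence shared by several transcripts, was replaced by the other (-0.81, 0.0732). Nop10, a small core protein, read 10.99, 11.16 and 11.16 in control and 10.18, 10.54 and 10.63 in dKO (-0.65 ± 0.18 SE, adjusted p = 0.0775). Gar1, a core protein with glycine and arginine repeats, read 11.08, 10.82 and 10.96 in control and 10.40, 10.46 and 10.49 in dKO (-0.50 ± 0.16 SE, adjusted p = 0.122). In these members too all dKO arrays lay below all control arrays. The 4 H/ACA members had a median of -0.80, the lowest of the 7 role groups; the differences between role groups were not tested.

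**Figure D2:**
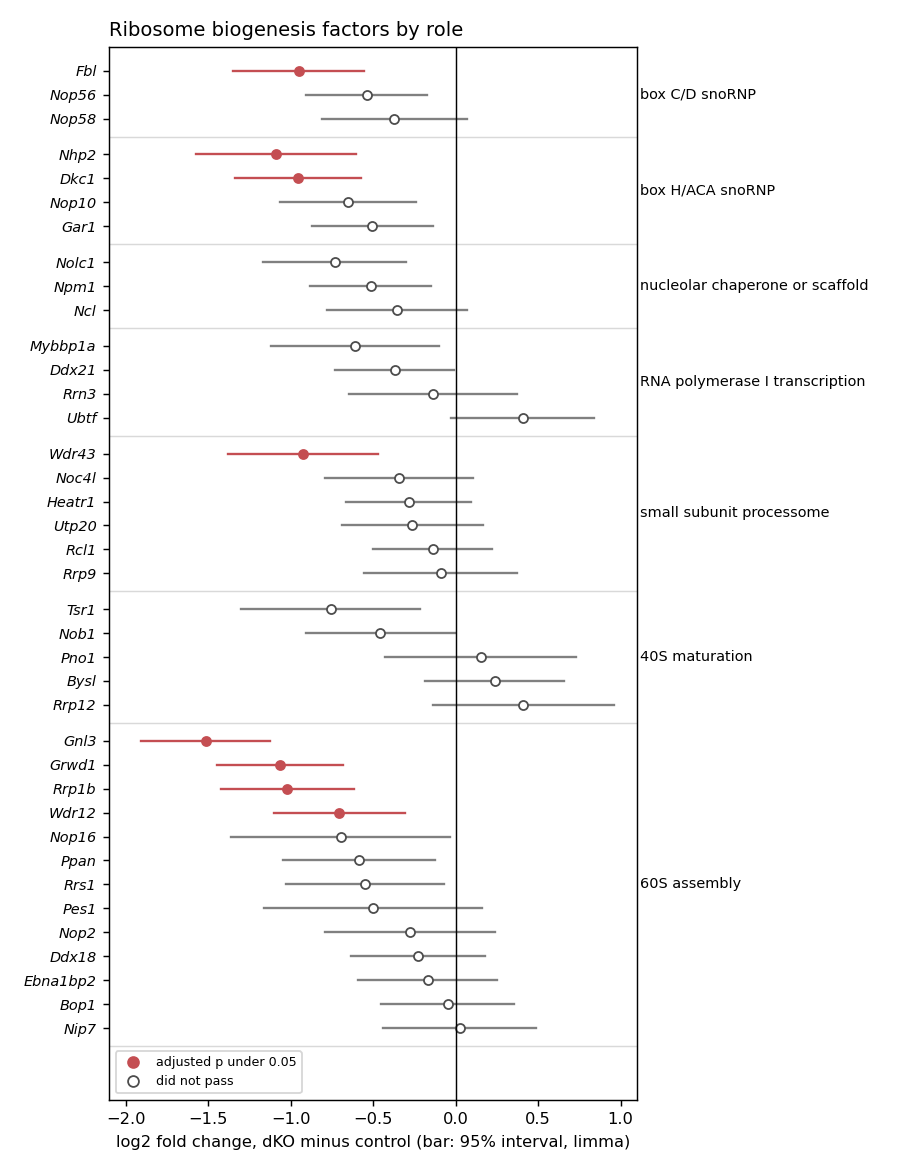
Log2 fold change (dKO minus control) of the 38 measured members by role, with bars for the 95% interval of the limma fit; red points passed the adjusted threshold of 0.05 and open points did not. Gnl3 lies lowest at -1.52, and the 5 members to the right of 0 all have intervals that include 0.

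Of the 3 nucleolar chaperones and scaffold proteins 0 passed (limma), with a median log2 fold change of -0.51. At an unadjusted p under 0.05 there were 2 lower (66.7%, against 9.14% of all genes) and 0 higher (against 9.1%). Nucleophosmin (Npm1), a histone and ribosomal protein chaperone, read 13.01, 12.85 and 12.91 in control and 12.51, 12.41 and 12.30 in dKO, a difference of -0.51 ± 0.16 (SE, adjusted p = 0.114). Nucleolin (Ncl), which binds the precursor RNA, read 12.21, 11.90 and 11.92 in control and 11.82, 11.75 and 11.40 in dKO, a difference of -0.36 ± 0.19 (SE, adjusted p = 0.377). Both are among the brightest probe sets on the arrays (above the 99th percentile of mean level; Npm1 at 99.8 and Ncl at 99.2). Nolc1, a snoRNP chaperone, differed by -0.73 ± 0.19 (SE, adjusted p = 0.0599) and passed under the filter on dim genes (adjusted p = 0.0369). In all 3 the dKO arrays lay below the control arrays, as in 10.7% of all genes.

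Factors of RNA polymerase I transcription gave 0 calls among 4 members (limma). At an unadjusted p under 0.05 there were 2 lower (50%, against 9.14% of all genes) and 0 higher (against 9.1%). Mybbp1a, a nucleolar protein that associates with the polymerase, differed by -0.61 (adjusted p = 0.181), and passed without dKO 3 (-0.83, adjusted p = 0.0374). In dKO 3 it read 10.14, against 9.63 and 9.31 in dKO 1 and 2 and 10.23 to 10.44 in control. It passed with no other single array left out, and its adjusted p then reached 0.401. The RNA helicase Ddx21 differed by -0.37 (adjusted p = 0.256), with no overlap between the groups. The initiation factor Rrn3 read 7.91, 7.98 and 7.94 in control and 7.99, 8.12 and 7.31 in dKO, so only dKO 3 lay below control. Ubtf, which binds ribosomal DNA, ran the other way. It read 8.84, 9.19 and 8.84 in control and 9.40, 9.12 and 9.57 in dKO, and its difference of 0.41 ± 0.19 (SE, adjusted p = 0.311) did not pass.

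Among 6 members of the small subunit processome only Wdr43 fell (16.7%, against 2.85% of all genes). It read 9.81, 9.57 and 9.88 in control and 9.13, 8.81 and 8.54 in dKO. The change was -0.92 ± 0.20 (SE; 1.90-fold, adjusted p = 0.0284). This call was lost without control 1 (adjusted p = 0.0887), control 2 (0.063), control 3 (0.118), dKO 2 (0.075) or dKO 3 (0.0552), with changes from -1.08 to -0.78 over the arrays left out. Heatr1, which links the processome to transcription, differed by -0.28 with no overlap, and Noc4l (-0.34), Utp20 (-0.26), Rcl1 (-0.14) and Rrp9 (-0.09), a U3 snoRNP protein, overlapped between groups. Adjusted p was at least 0.43 in each of these 5.

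Of the 5 factors of later 40S maturation 0 passed (limma), and their median of 0.15 was the only one above 0 among the role groups. At an unadjusted p under 0.05 there were 2 lower (40%, against 9.14% of all genes) and 0 higher (against 9.1%). Tsr1, a GTPase-like protein of the pre-40S particle, read 9.90, 9.99 and 10.05 in control and 9.77, 9.05 and 8.85 in dKO, a difference of -0.76 ± 0.24 (SE, adjusted p = 0.117). The dKO 1 value lay close to control, and without it Tsr1 passed (-1.03, adjusted p = 0.0241). It passed with no other single array left out, and its adjusted p then reached 0.297. Nob1, the nuclease that finishes the end of 18S ribosomal RNA, differed by -0.46 (adjusted p = 0.266). Rrp12, an export factor, read 6.41, 6.82 and 6.60 in control and 7.53, 6.67 and 6.87 in dKO, a difference of 0.41 ± 0.24 (SE, adjusted p = 0.443) in which dKO 1 stood highest. Bysl, an assembly factor, read 7.26, 7.46 and 7.75 in control and 7.80, 7.80 and 7.58 in dKO (0.24, adjusted p = 0.599). Pno1, the partner of Nob1, differed by 0.15 (adjusted p = 0.842) and its difference turned with the arrays used, from -0.11 without dKO 1 to 0.42 without dKO 3.

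Of 13 measured 60S assembly factors 4 fell (30.8%, against 2.85% of all genes), including the member with the largest change. Gnl3, the GTPase nucleostemin, read 10.14, 9.91 and 9.94 in control and 8.46, 8.32 and 8.66 in dKO, more than 1 log2 unit apart at the nearest arrays. It fell by 1.52 ± 0.17 (SE; 2.86-fold, adjusted p = 0.00137), and 0.86% of all genes had as low a log2 fold change. Its call held in each of the 17 other settings tried. Grwd1, a WD-repeat chaperone, read 8.16, 8.34 and 8.24 in control and 7.28, 7.003 and 7.27 in dKO. It fell by 1.06 ± 0.17 (SE; 2.09-fold, adjusted p = 0.00665), a call kept with each array left out and lost when its _s_at probe set was replaced by another (-0.29, adjusted p = 0.604).

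Rrp1b, a nucleolar protein of large subunit processing, read 8.96, 8.54 and 8.82 in control and 7.68, 7.69 and 7.88 in dKO. It changed by -1.02 ± 0.18 (SE; 2.03-fold, adjusted p = 0.011) and lost its call without control 3 (adjusted p = 0.0534). Wdr12 belongs with Pes1 and Bop1 to the PeBoW complex, which matures the 60S RNA, and the 3 partners differed in their values. Wdr12 read 9.79, 9.62 and 9.72 in control and 8.94, 9.24 and 8.84 in dKO (-0.70 ± 0.18 SE, 1.63-fold). Its adjusted p of 0.0498 lay at the threshold, and rose to 0.161, 0.121, 0.165, 0.144 and 0.0834 without control 1, control 2, control 3, dKO 1 and dKO 3. The Wdr12 call was also lost with probe sets averaged (-0.48, adjusted p = 0.101) and with _x_at and _s_at probe sets left out (0.0501). Centring on the median (0.0511) or the 75th percentile (0.0676) lost it too. Pes1 differed by -0.50 ± 0.29 (SE, adjusted p = 0.439), with control 2 at 9.69 above the other control arrays (8.68 and 8.91). Bop1 differed by -0.05 ± 0.18 (SE, adjusted p = 0.935; 95% interval from -0.45 to 0.35). Whether the 3 differ from each other was not tested.

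The other 60S factors did not pass. Ppan (-0.59, adjusted p = 0.155) and Rrs1 (-0.55, adjusted p = 0.203), which helps place the 5S particle, had no overlap between groups, although the Rrs1 values of control 3 and dKO 1 were both 10.07 when rounded. Nop16 differed by -0.70 (adjusted p = 0.249) with control 3 at 7.76 above controls 1 and 2 at 6.69 and 6.86. The RNA methyltransferase Nop2 (-0.27), the helicase Ddx18 (-0.23), Ebna1bp2 (-0.17) and Nip7 (0.03) overlapped, with adjusted p from 0.594 to 0.973.

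**Figure D3:**
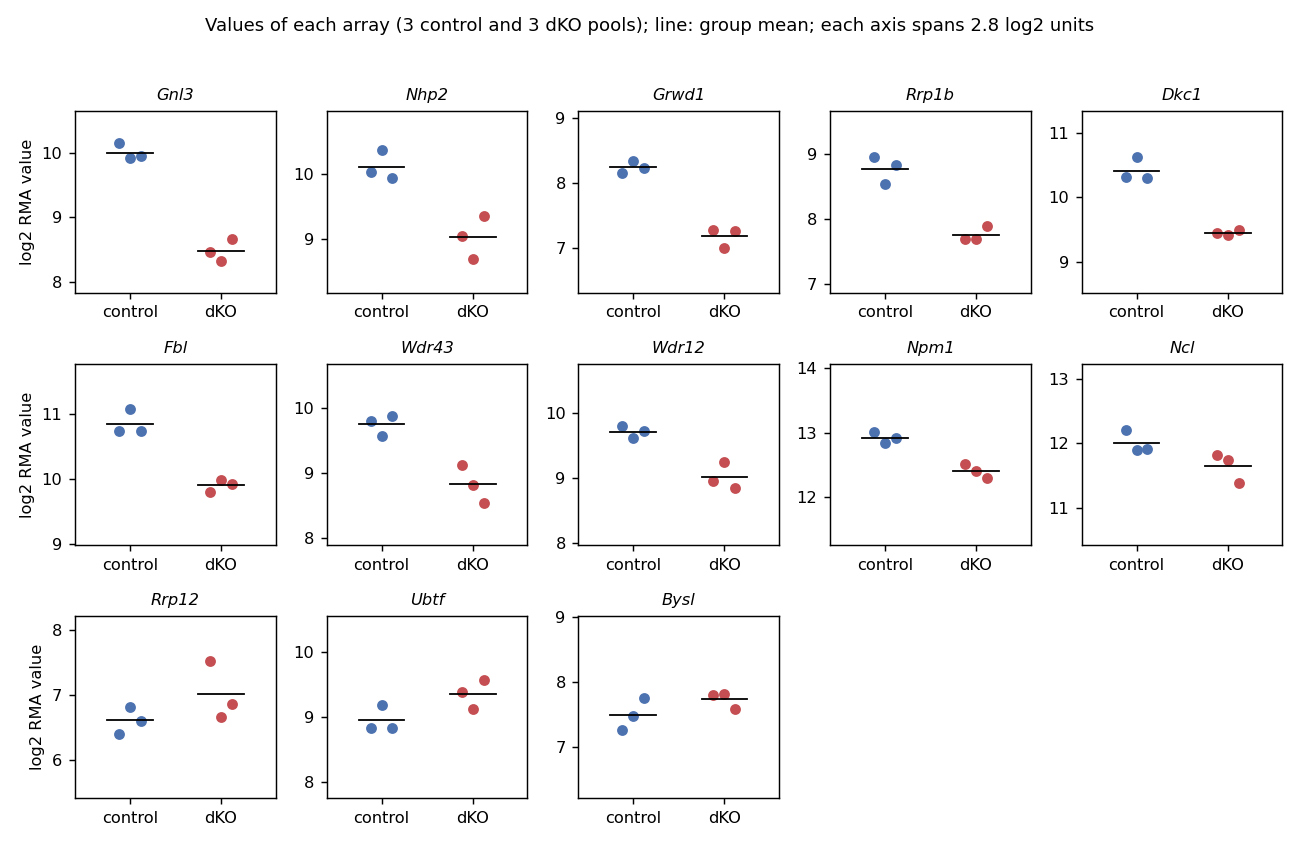
Log2 RMA values of each control (blue) and dKO (red) array for the 8 fallen members, for Npm1 and Ncl and for the 3 members with the highest log2 fold changes, with bars for group means. The groups are apart in the first 10 panels and overlap for Rrp12, Ubtf and Bysl.

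Other probe sets of the same genes often showed a larger difference than the brightest. Of 26 members with several probe sets, the second brightest was lower than the brightest in its log2 fold change in 17. Medians were -0.73 and -0.54. The second Npm1 probe set fell by 1.08 ± 0.20 (SE; adjusted p over all probe sets = 0.0242), from a control mean of 12.30 to 11.22 in dKO. The second Nop10 (-0.86, adjusted p = 0.0337), Nop56 (-0.87, 0.0422) and Mybbp1a (-0.95, 0.0248) probe sets also fell, as did the dimmest of Nolc1 (-1.24, 0.0374). Over all probe sets 18 of the members' 77 fell and 0 rose (23.4%, background 1.78%), and they belong to 12 genes. All 3 probe sets of Dkc1 and of Rrp1b fell, and both of Fbl and of Wdr43. All 5 Ncl probe sets lay below 0 (-0.36 to -0.76) and none passed (smallest adjusted p = 0.0829). Signs differed for Nip7 (0.03 and -0.89), Pes1 (-0.50 and 0.51) and Ebna1bp2, and the further probe sets of Pes1 and Ebna1bp2 were dim (mean level below 5.93). With the mean of a gene's probe sets 13 members were lower, and with _x_at and _s_at probe sets left out 6 of 36 were, with a median of -0.37.

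**Figure D4:**
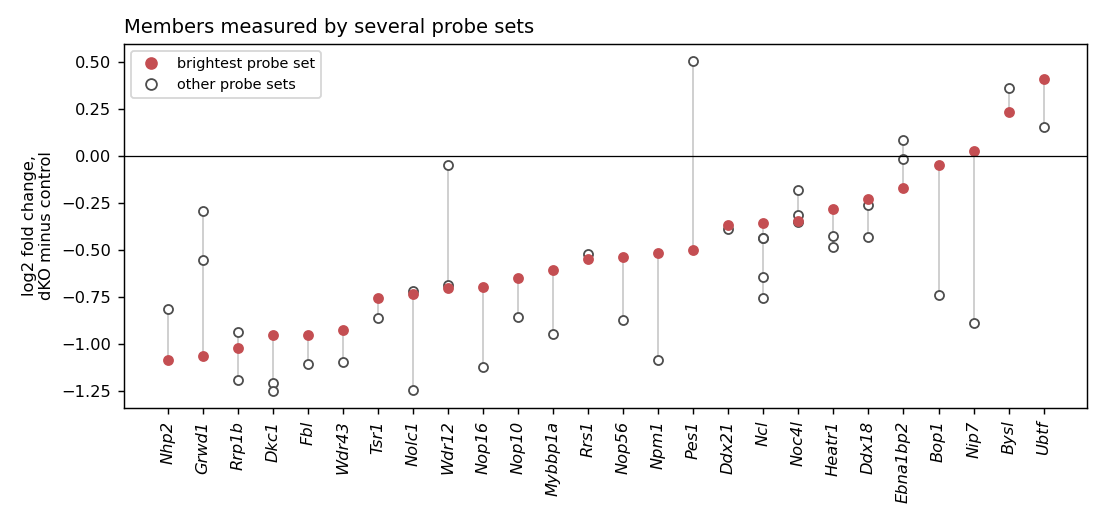
Log2 fold changes (dKO minus control) of all probe sets of the 26 members that have several; the red point is the brightest probe set, which represents the gene, and open points are the others. For 17 genes the second brightest lies below the red point, as for Npm1 at -1.08 against -0.51.

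Of 132 further biogenesis factors 128 were measured. By the adjusted test 4 fell and 0 rose, a share of 3.12% that is near the 2.85% of all genes. Below an unadjusted p of 0.05 there were 28 lower (21.9%, against 9.14%) and 0 higher, and 94 (73.4%, against 42.4%) had a log2 fold change below 0. The median was -0.19, between the -0.48 of the nucleolar members and the 0.05 of all genes. Polr1b, the second largest subunit of RNA polymerase I, read 6.85, 7.26 and 7.11 in control and 5.98, 6.21 and 6.03 in dKO. It fell by 1.002 ± 0.18 (SE; 2.003-fold, adjusted p = 0.0116). Taf1d, a subunit of the polymerase I selectivity factor (-0.89, adjusted p = 0.0274), Aatf, a small subunit factor (-0.89, 0.0167), and Exosc5 of the nuclear exosome (-0.73, 0.0387) fell as well. By p the next were Polr1c (-0.72), Noc2l (-0.66), Wdr75 (-0.64), Rsl1d1 (-0.59), Pa2g4 (-0.56) and Exosc2 (-0.56), with adjusted p from 0.0591 to 0.102. The number of lower genes depended on the arrays: it was 0 without control 2 or control 3, 2 without control 1, dKO 1 or dKO 2, and 7 without dKO 3. By role, the median was -0.40 for 10 factors of snoRNP assembly and other nucleolar functions and -0.38 for 13 polymerase I subunits and factors. It was -0.19 for 49 large subunit factors, -0.15 for 13 exosome genes and -0.11 for 43 small subunit factors, and these differences were not tested.

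**Figure D5:**
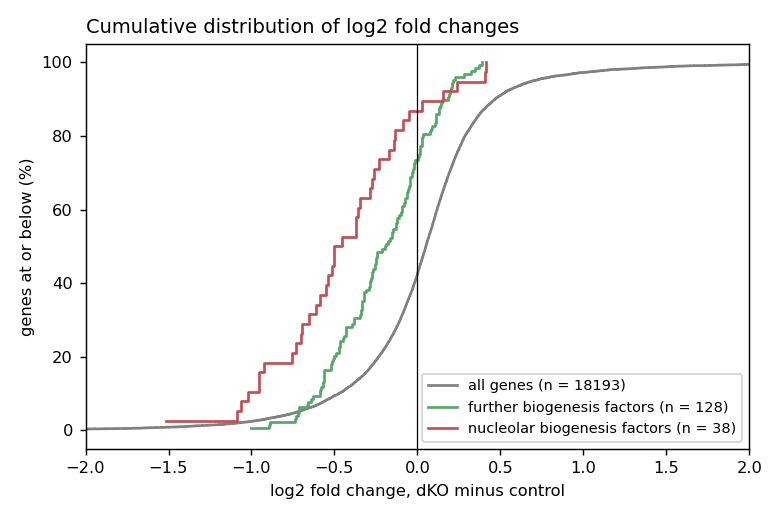
Share of genes (%) at or below each log2 fold change (dKO minus control) for the 38 measured nucleolar members, 128 further biogenesis factors and all 18193 genes; the axis stops at -2 and 2. At 0 the curves stand at 86.8%, 73.4% and 42.4%.

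Some members hold snoRNA genes within their span, by the positions in the RefSeq gene table of GRCm38.p6. Strand and introns were not checked. There were 8 such genes among the measured members (Nop56, Nop58, Dkc1, Ncl, Wdr43, Tsr1, Gnl3 and Ppan), and 3 of these members fell. Their median log2 fold change was -0.67, against -0.36 for the other 30 members, of which 5 fell. Over all 312 measured protein-coding genes with a snoRNA inside, the median was -0.03 and 6.09% were lower, against 0.05 and 2.8% of the other 17881 measured genes. None of these differences was tested.

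Cell cycle genes were compared because ribosome production follows growth and division. Of 15 measured S phase genes 0 passed in either direction (limma), with a median of 0.00, and Ung (-0.60), Cdt1 (-0.61) and Rrm2 (0.37) had the smallest p. At an unadjusted p under 0.05 there were 2 lower (13.3%, against 9.14% of all genes) and 1 higher (against 9.1%). Of 15 G2 and M phase genes 2 fell (13.3%, against 2.85% of all genes), Kif23 (-0.85) and Racgap1 (-0.80), and 0 rose. Their median was -0.20, against 0.05 over all genes. All dKO arrays lay below all control arrays in 5 of them (33.3%, against 10.7% of all genes) and above in 0. For the S phase genes these numbers were 4 (26.7%) and 2, where 12.7% of all genes lay above. Mki67, the gene of the proliferation antigen Ki-67, read 12.40 to 12.49 in control and 12.42 to 12.86 in dKO. Cdkn1a, which encodes the cell cycle inhibitor p21, rose by 4.01 ± 0.36 (SE, adjusted p = 0.000457).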

How the data were processed

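The table holds 45101 probe sets on 6 Affymetrix mouse arrays. Per the submitters' processing notes RMA was used, and the deposited values fit its log2 scale; the version is not given in the sources used here. Per the labels' protocols, Trizol-extracted RNA was amplified in 2 rounds with a Nugen kit. RMA scales the arrays to each other, so a change in total RNA per cell is not measured, and differences of dim probe sets are understated. The deposited values still differed somewhat between arrays, with 75th percentiles from 7.51 (dKO 3) to 7.70 (dKO 2). The platform annotation gave 1 symbol to 34945 probe sets, of which 34741 were matched to RefSeq (GRCm38.p6) by gene identifier.

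Groups came from sample titles. limma 3.58.1 in R 4.3.3 (lmFit, eBayes, group as the only term, two-sided) was fitted to all 18193 genes without a filter on low values, with Benjamini-Hochberg adjustment and a threshold of 0.05, and separately to all probe sets. The fit was tested on simulated data. Errors cover the spread between 3 pools per group, the number of arrays limits the precision, and a p that misses the threshold does not show that a gene did not differ. Members and lists were chosen with earlier results of these data known. All members are named, with array values for those past the threshold, the 3 highest and Ncl, Npm1 and Fbl; further factors are named by the 10 smallest p. Array values of some other members were added after their values were seen. Alternatives changed the probe set, filter, scaling, variance model, threshold, replicate block and arrays used. Figures were drawn with matplotlib 3.10.9.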

Additional observations from a re-analysis of the deposited data

How the results depend on the processing

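No member was called higher in any setting. The number of lower members, 8 with all arrays, was 13 when probe sets were averaged and 13 under trend and robust eBayes, and 3 to 7 with 1 array left out. It was 2 without control 1 and dKO 1 together, when Gnl3 and Grwd1 passed. It stayed within 1.5 times of 8 with dim genes filtered out (10), array weights (12), a threshold of 0.1 (11), quantile normalization (8) and centring on the median or 75th percentile (7 each). Counts of fallen members whose groups do not overlap were the same numbers. The median of -0.48 ran from -0.49 to -0.41 with 1 array left out and was -0.38 under quantile normalization. Without _x_at and _s_at probe sets, which leaves 36 members, the median was -0.37. Lower further factors, 4 with all arrays, numbered 8 when probe sets were averaged or dim genes filtered out, 9 with trend and robust eBayes or a threshold of 0.1, 12 with array weights, 0 to 7 with 1 array left out, and 0 without control 1 and dKO 1 together. With the replicate number as a block, 7 members and 2 further factors were lower, and Wdr12 lost its call (adjusted p = 0.0945). Deviations of same-numbered arrays correlated by 0.06, 0.00 and 0.02 over all genes and by -0.21, -0.39 and -0.27 over members. The numbers were therefore not taken to pair the arrays. Control 1 and dKO 1 did share high Xist values (9.10 and 10.50), and whether same-numbered arrays share a further factor was not tested.

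Signs turned only in members that did not pass: Pes1 (0.0038) and Nip7 (-0.43) when probe sets were averaged, Nip7 without control 2 (-0.05) or dKO 2 (-0.13), Rrp9 without control 3 (0.02) or dKO 2 (0.0569), Bop1 without control 3 (0.0815), Pno1 without dKO 1 (-0.11) or without control 1 and dKO 1 together (-0.0913), and Rrn3 without dKO 3 (0.11). With 1 array left out these members ran from -0.13 to 0.20 (Nip7), -0.21 to 0.0569 (Rrp9), -0.14 to 0.0815 (Bop1), -0.11 to 0.42 (Pno1) and -0.29 to 0.11 (Rrn3). Apart from arrays left out, where the number of arrays fell, the cause of these shifts was not tested. Scanner files and detection calls were not used here, so signal over background is not known for dim members.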

Other observations

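The arrays also carry control probe sets for 18S ribosomal RNA, an end product of the pathway. The one for its middle part read 13.71 to 13.81 in the control arrays and 13.84 to 13.90 in the dKO arrays. The 3' one read 13.42 to 13.54 and 13.54 to 13.72, and the 5' one 12.52 to 12.91 and 12.77 to 12.92. The middle probe set was itself the highest value of its array in all arrays but control 1, where it read 13.80 against a highest value of 13.85. The 5' values lay further below the highest value (13.71 to 13.90). Whether the amount of ribosomal RNA differed was not tested.

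Actb, a cytoskeletal gene often used as a reference, read 13.07 to 13.22 in control and 13.42 to 13.49 in dKO, and its difference of 0.30 did not pass (adjusted p = 0.371).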
